A study of Rattus norvegicus with 325 samples.

Results

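The soleus and the tibialis anterior of young adult rats were compared, both muscles of the hind limb. Libraries were chosen by their labels, soleus at 6 months of age (12 libraries) and tibialis anterior at 6 months of age (12 libraries), which makes 24 of the 325 libraries of the series. The series covers bulk RNA sequencing of 4 skeletal muscles at 7 ages, in male rats of the outbred Sprague Dawley strain. The rats of both groups carried no stated mutation and received no stated treatment, so the groups differed in the muscle alone as far as the labels say. All tissues of an age were collected on the same day. The labels do not give the animal behind a library. By the authors' account, the samples of 1 muscle at 1 age came from as many animals. Whether a soleus and a tibialis anterior library came from 1 animal is not stated. The p-values describe the spread between these libraries. A running number in the labels passed through all soleus and then all tibialis anterior libraries. What it stands for is not stated, and an order of handling, if it marks one, and the muscle cannot be told apart.

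The soleus holds the ankle against gravity for long periods and in the rat is built mainly of slow (type I) fibers, whereas the tibialis anterior lifts the foot in brief contractions and is built mainly of fast (type II) fibers. Fiber types differ in the isoforms of myosin, troponin and tropomyosin in the sarcomere, in the calcium pumps and buffers that switch contraction off, and in the balance between glycolysis and the oxidation of fat. Slow fibers use the myosin heavy chain of Myh7, and fast fibers those of Myh2 (type IIa), Myh1 (type IIx) or Myh4 (type IIb).

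Soleus libraries held 24.4 to 39.2 M counts (median 31.9) and tibialis anterior libraries 28.1 to 66.1 M (median 38.0). The 10 genes with the most counts took a median of 19.9% of the counts in soleus and 28.1% in tibialis anterior. Levels below are CPM, a gene's counts scaled to a common library total, after TMM scaling, which adjusts the totals for such differences in composition, and differences are soleus minus tibialis anterior on the log2 scale from limma-voom. Levels are compared for the same gene between muscles and not between genes, since gene lengths on the files' annotation were not used here. In bulk muscle, fewer cells of a type and less RNA per cell cannot be told apart.

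Of 11275 genes tested, 2678 were higher in soleus (23.8%) and 2083 higher in tibialis anterior (18.5%), at an adjusted p under 0.05 and more than 1.5-fold. The median difference of all genes tested was 0.037 and the median SE 0.059. Past 4-fold there were 408 genes higher in soleus and 249 higher in tibialis anterior, and past 16-fold 74 and 50. The 24 libraries separated by muscle with no overlap in 5246 of the genes tested (46.5%), and in 3592 of the 4761 called genes. The split depended on the scaling. With library totals alone the median difference of all genes moved up by 0.37 and the calls became 4475 and 1025, so that 81.4% of calls were higher in soleus in place of 56.2%. The largest differences higher in tibialis anterior belonged to sarcomere and calcium handling genes, and the largest higher in soleus to a ribosomal RNA and to liver transcripts, as the plot of the difference against the level shows.

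**Figure D1:**
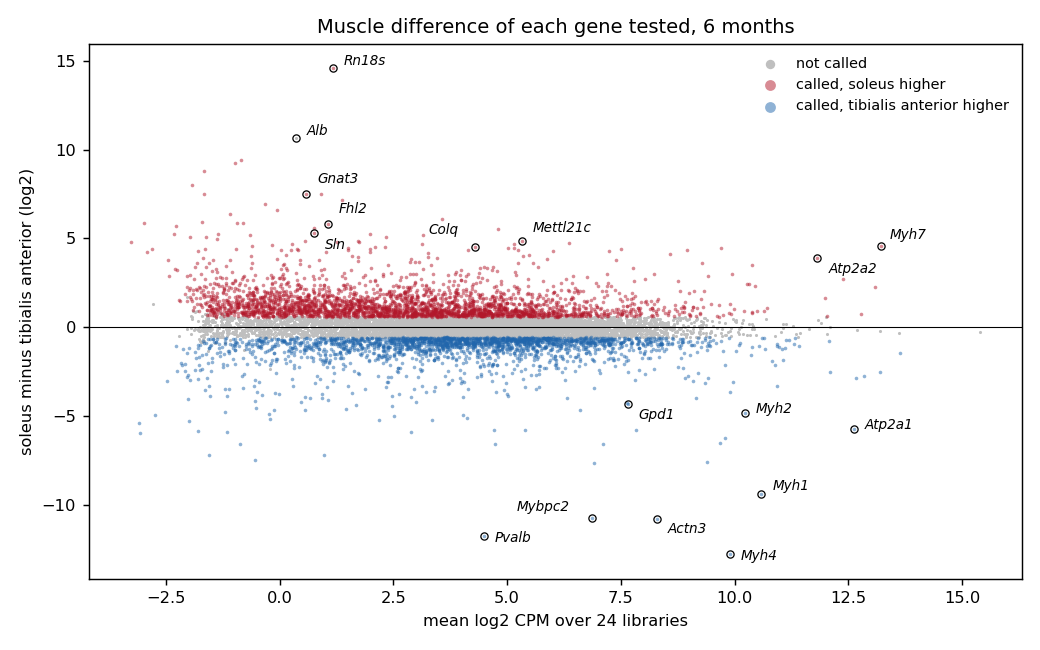
Difference between soleus and tibialis anterior (log2, y axis) against the mean log2 CPM over the 24 libraries (x axis) for each of the 11275 genes tested at 6 months. Red points are the 2678 genes called higher in soleus, blue points the 2083 called higher in tibialis anterior and grey points were not called. Myh4 lies lowest at -12.81 and the ribosomal RNA Rn18s highest at 14.58.

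Slow sarcomere genes were higher in soleus almost throughout. Of the 13 genes of the slow contractile list, 11 were higher in soleus, 1 was higher in tibialis anterior and 1 was not called, with a median difference of 3.62. Myh7 read 40592, 45518 and 51185 CPM in the lowest, median and highest soleus library and 1344, 1921 and 3148 CPM in tibialis anterior. Its level was thus 23.3-fold higher in soleus (difference 4.54, SE 0.10, adjusted p 1.9e-25). Slow troponins T and I gave nearly the same ratio: Tnnt1, which ties troponin to tropomyosin, was 20.4-fold higher (4.35, SE 0.10), and Tnni1, the inhibitory subunit, 19.7-fold higher (4.30, SE 0.09). Tnni1 ran from 616 to 753 CPM in soleus and from 22.6 to 52.7 CPM in tibialis anterior. Slow troponin C, Tnnc1, the calcium-binding subunit, was 12.3-fold higher (3.62, SE 0.10).

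Slow tropomyosin Tpm3 was 22.0-fold higher in soleus (4.46, SE 0.10) and the little-studied heavy chain Myh7b 15.7-fold (3.98, SE 0.10). Myoz2, a Z-disc protein that binds calcineurin, was 9.84-fold higher (3.30, SE 0.07). The slow light chains Myl2 and Myl3 were 7.98-fold (3.00, SE 0.09) and 5.35-fold (2.42, SE 0.06) higher. Actn2, the alpha-actinin of all fiber types, was 3.07-fold higher in soleus (1.62, SE 0.03). Mybpc1, slow myosin-binding protein C, was the member not called: it read 7779 to 9158 CPM in soleus and 9176 to 10987 CPM in tibialis anterior, a difference of -0.20 (SE 0.03) that turned to 0.17 with library totals alone. The member higher in tibialis anterior was Myl6b (-0.83, SE 0.17, adjusted p 5.3e-05), a light chain at 1.72 CPM or less in soleus, whose libraries overlapped. That call was lost with library totals alone (-0.46) and the difference was -0.44, not called, at 9 months. Myh6, the alpha heavy chain known from heart, was 21.6-fold higher in soleus with a wide spread (4.43, SE 0.75, adjusted p 4.7e-06), from 28.7 to 496 CPM in soleus and from 1.95 to 20.9 CPM in tibialis anterior. Myh6 and Myh7 are close paralogs, and how reads that match both were counted is not given in the sources used here.

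**Figure D2:**
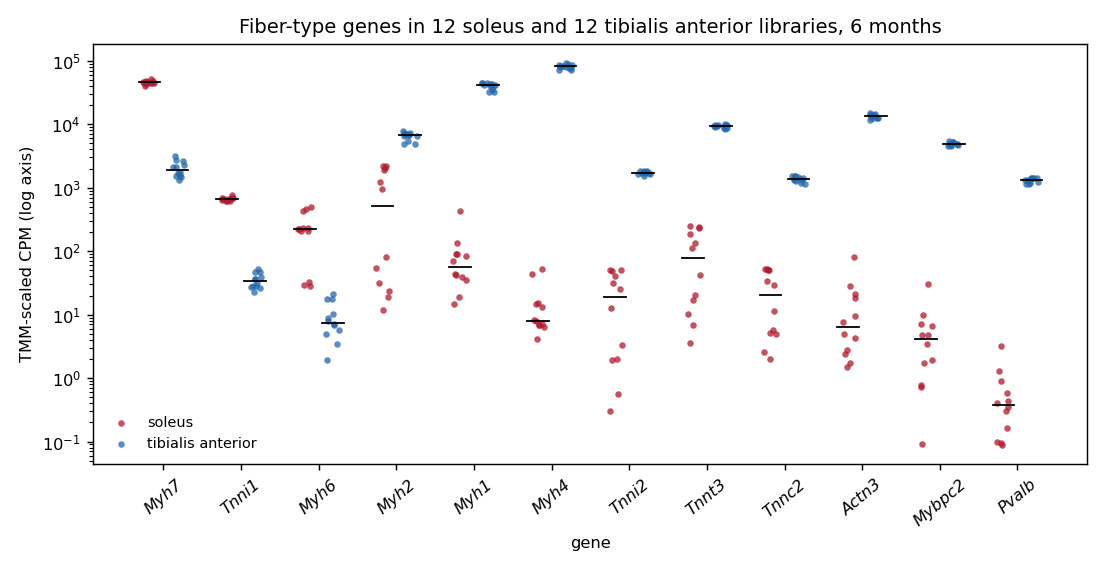
Level of 12 slow and fast fiber genes in each library at 6 months, on a log axis of TMM-scaled CPM. Each red point is 1 of 12 soleus libraries, each blue point 1 of 12 tibialis anterior libraries and black bars are medians. No gene shown has overlapping muscles, Myh7 stays between 40592 and 51185 CPM in soleus, and Myh2 in soleus ranges from 11.9 to 2190 CPM.

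Fast sarcomere genes showed larger differences than the slow ones did. All 14 fast contractile genes listed in the files used here were higher in tibialis anterior, with a median difference of -6.56, a range from -12.81 to -1.91 and no overlap between libraries of the 2 muscles. Myh4 read 4.12, 8.02 and 53.1 CPM in the lowest, median and highest soleus library and 70970, 81172 and 91787 CPM in tibialis anterior. It was the gene with the largest difference higher in tibialis anterior, 7186-fold (-12.81, SE 0.23, adjusted p 1.1e-27). Myh1 was 671-fold higher in tibialis anterior (-9.39, SE 0.29). Its 12 soleus libraries read 14.6 to 424 CPM and the tibialis anterior libraries 31963 to 44920 CPM. Myh2 was 28.7-fold higher (-4.84, SE 0.76, adjusted p 1.3e-06). Of the 3 fast heavy chains, Myh2 had the smallest difference and the largest SE.

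Actn3, the alpha-actinin of fast fibers, was 1787-fold higher in tibialis anterior (-10.80, SE 0.34), and Mybpc2, fast myosin-binding protein C, 1730-fold (-10.76, SE 0.39). In soleus both stayed at 82.0 CPM or less in every library, against at least 4593 CPM in tibialis anterior. Fast troponins followed: Tnni2 was 203-fold higher (-7.66, SE 0.53), Tnnt3 194-fold (-7.60, SE 0.49) and Tnnc2 96.7-fold (-6.60, SE 0.38). Tpm1 was 92.3-fold (-6.53, SE 0.16), the fast regulatory light chain Mylpf 76.0-fold (-6.25, SE 0.22) and the Z-disc protein Myoz1 56.7-fold higher (-5.82, SE 0.08). The members with the smallest differences were Mylk2, the skeletal muscle light chain kinase (6.80-fold), Myl1, the fast essential light chain (5.83-fold), and Myom2, an M-band protein (3.76-fold).

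The 250 bases before the annotated start of 4 of these genes are shown because the pairs Myh7 and Myh4, and Tnni1 and Tnni2, do the same work in slow and fast fibers and differ in opposite directions. The sequences come from RefSeq on GRCr8, a later build than that of the counts, and a start used in muscle may lie elsewhere. Capitals mark 4 motifs on either strand, the E box (CANNTG, the core bound by myogenic factors such as MyoD), MCAT (CATTCC, bound by TEAD factors), the MEF2 motif and TATAAA.
Myh7, chr15:32438195-32438444, minus strand: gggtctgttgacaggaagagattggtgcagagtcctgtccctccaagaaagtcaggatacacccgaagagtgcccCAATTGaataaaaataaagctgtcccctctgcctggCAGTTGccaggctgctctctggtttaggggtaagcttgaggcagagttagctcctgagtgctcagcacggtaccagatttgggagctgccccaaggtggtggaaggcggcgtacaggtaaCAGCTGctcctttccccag
Tnni1, chr13:49781279-49781528, plus strand: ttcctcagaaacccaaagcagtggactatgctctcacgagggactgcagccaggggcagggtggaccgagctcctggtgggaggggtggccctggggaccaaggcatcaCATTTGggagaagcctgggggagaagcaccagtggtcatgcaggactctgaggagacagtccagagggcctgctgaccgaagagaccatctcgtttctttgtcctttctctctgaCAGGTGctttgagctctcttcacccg
Myh4, chr10:52421898-52422147, plus strand: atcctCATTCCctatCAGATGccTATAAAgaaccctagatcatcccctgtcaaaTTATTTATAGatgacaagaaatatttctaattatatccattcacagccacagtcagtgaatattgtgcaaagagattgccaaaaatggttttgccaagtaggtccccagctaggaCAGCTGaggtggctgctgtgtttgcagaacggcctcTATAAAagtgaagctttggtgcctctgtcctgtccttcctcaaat
Tnni2, chr1:207024240-207024489, plus strand: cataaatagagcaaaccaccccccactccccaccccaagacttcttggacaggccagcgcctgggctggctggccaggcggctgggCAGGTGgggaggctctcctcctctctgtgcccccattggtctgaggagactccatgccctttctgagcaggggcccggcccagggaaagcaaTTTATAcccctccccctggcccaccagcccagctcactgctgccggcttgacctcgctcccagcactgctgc

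The Myh7 window held 3 E boxes and the Tnni1 window 2, with none of the other 3 motifs. The Myh4 window held 2 E boxes, 1 MCAT, 1 MEF2 motif and 3 matches of TATAAA, 1 of them inside the MEF2 motif, and the Tnni2 window 1 E box and 1 TATAAA. Outside these 4 motifs, the Myh4 window also held a CArG box (CCWWWWWWGG, with W for A or T), which is not marked. An upstream sequence was matched by symbol for 8593 of the 11275 genes tested, for 285 of the 408 higher in soleus past 4-fold and for 188 of the 249 higher in tibialis anterior past 4-fold. An E box stood in 64.9% of the soleus set and 60.6% of the tibialis anterior set, against 56.2% of all. The MEF2 motif stood in 4.56%, 4.79% and 1.58%, TATAAA in 12.6%, 9.57% and 6.41%, and MCAT in 14.7%, 12.8% and 9.997%, in the same order. The GC box GGGCGG stood in 47.4%, 52.1% and 59.3%. The CArG box stood in 1.75%, 1.06% and 1.16%, and the ERR motif TNAAGGTCA in 1.40%, 1.06% and 0.431%. These are shares of windows with the letters, without a test.

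Within soleus, fast genes were among those that varied most between libraries, together with liver transcripts described further on. The median SD over genes above a log2 CPM of 1 was 0.138 in soleus and 0.105 in tibialis anterior, and 38 and 8 genes had an SD over 1. Myh2 had the largest SD in soleus, 3.13, against 0.23 in tibialis anterior. Its soleus values fell into 2 separate ranges, with replicates 0, 4, 5, 7, 8 and 10 between 11.9 and 79.5 CPM and replicates 1, 2, 3, 6, 9 and 11 between 952 and 2190 CPM. The fast troponin genes split the same libraries. Tnni2 ran from 25.0 to 50.7 CPM in the 6 libraries of higher Myh2 and from 0.307 to 12.9 CPM in the other 6, Tnnt3 from 111 to 247 CPM against 3.53 to 42.7 CPM, and Tnnc2 from 28.9 to 52.7 CPM against 11.3 CPM or less. Tpm1 and Mylpf were also higher in those 6 libraries without overlap. At 9 months soleus libraries again spread widely in Myh2, from 24.2 to 4452 CPM of library total.

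Myh4, Myh1, Actn3 and Pvalb did not follow Myh2 across soleus libraries. Myh4 stood at 44.3 CPM in replicate 0 and 53.1 CPM in replicate 5, and at 15.5 CPM or less in the other 10. Replicate 0 also had the highest Myh1 (424 CPM), Actn3 (82.0 CPM), Mybpc2 (30.2 CPM) and Pvalb (3.18 CPM). Over the 12 soleus libraries log2 CPM of Myh4 and Pvalb had Pearson's r = 0.70 (permutation p = 0.017, adjusted over 5 relations 0.043) and Spearman's rho = 0.58 (permutation p = 0.052, adjusted 0.13). Without replicates 0 and 5, which lie farthest from the median of Myh4, r was 0.21 (permutation p = 0.56), so the relation rests on those 2 libraries. No r over all soleus libraries is given for Myh2 and Myh7, because Myh2 falls into separate ranges. Within the 6 lower libraries r was -0.13 (exact permutation p = 0.86, rho 0.03) and within the 6 higher ones -0.14 (exact permutation p = 0.98, rho 0.43). Neither range has enough libraries to leave out 2 more. Myh7 itself varied little in soleus.

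In tibialis anterior 2 slow genes varied together. Myh7 was lowest in replicate 3 (1344 CPM) and highest in replicate 8 (3148 CPM), and Tnni1 was lowest and highest in the same libraries, at 22.6 and 52.7 CPM. Over the 12 libraries r was 0.98 (permutation p = 4e-05, adjusted 0.0002) and rho 0.95 (permutation p = 6e-05, adjusted 0.0003), and r stayed at 0.96 (permutation p = 0.00044) without replicates 3 and 8. For Myh4 and Myh2 in tibialis anterior no relation was detected (r = 0.093, permutation p = 0.76, adjusted 0.98, rho = -0.11, permutation p = 0.74, adjusted 0.92). Without replicates 2 and 6 that r was 0.41 (permutation p = 0.25).

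**Figure D3:**
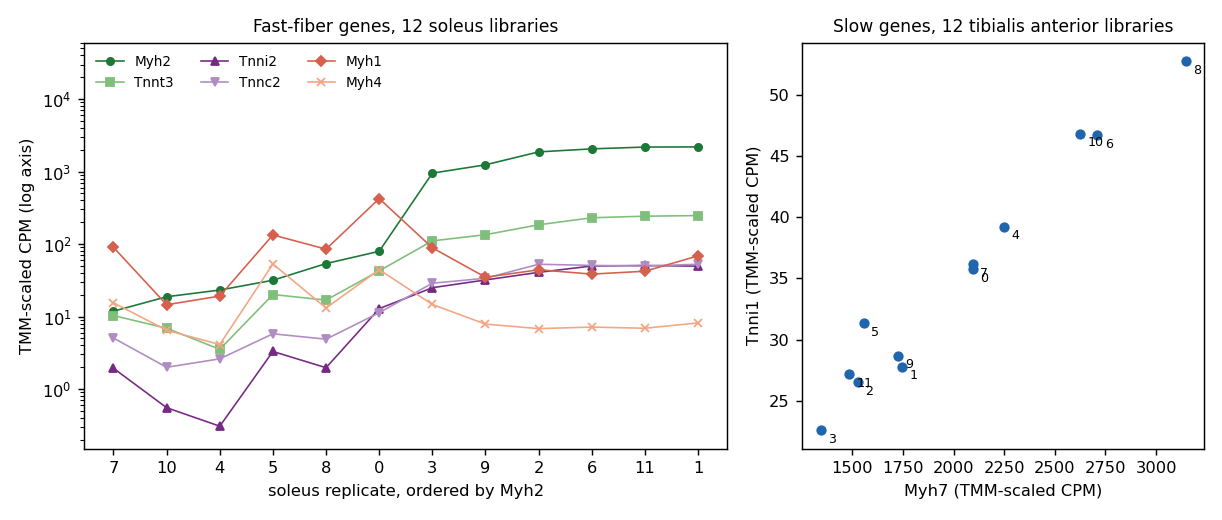
Left, TMM-scaled CPM (log axis) of 6 fast-fiber genes in the 12 soleus libraries at 6 months, ordered by Myh2, with 1 line for each gene. Right, Tnni1 against Myh7 (TMM-scaled CPM, linear axes) in the 12 tibialis anterior libraries, numbered by replicate. Myh2, Tnnt3, Tnni2 and Tnnc2 step up between replicates 0 and 3 whereas Myh4 does not, and Tnni1 climbs from 22.6 to 52.7 CPM as Myh7 climbs from 1344 to 3148 CPM.

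Of the 5 genes listed as developmental myosins and related sarcomere genes, 3 were higher in soleus and 1 in tibialis anterior. The embryonic heavy chain Myh3 read 186, 276 and 428 CPM (lowest, median, highest) in soleus and 27.2, 41.4 and 69.8 CPM in tibialis anterior, 7.01-fold higher (2.81, SE 0.13). Actc1, cardiac actin, was 10.3-fold higher (3.37, SE 0.26), and Tnnt2, cardiac troponin T, 22.7-fold higher (SE 0.37 on the log2 scale), at 14.1 to 44.3 CPM in soleus. The perinatal heavy chain Myh8 went the other way, 12.1-fold higher in tibialis anterior (-3.60, SE 0.36), with overlapping libraries. Myl4 was not called (0.17, SE 0.18, adjusted p 0.38).

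Calcium handling genes differed by isoform. Of 21 tested genes 3 were higher in soleus and 11 in tibialis anterior, with a median of -0.87. Atp2a2, the slow and cardiac calcium pump of the sarcoplasmic reticulum (SERCA2), read 12338, 13837 and 15631 CPM in soleus and 626, 935 and 1476 CPM in tibialis anterior, 14.6-fold higher in soleus (3.86, SE 0.10). Its fast counterpart Atp2a1 (SERCA1) read 485, 857 and 1386 CPM in soleus and 42827, 45313 and 49925 CPM in tibialis anterior, 53.9-fold higher there (-5.75, SE 0.13). The calcium stores of the reticulum also differed: Casq2, the slow and cardiac calsequestrin, was 20.8-fold higher in soleus (4.38, SE 0.10) and Casq1 3.62-fold higher in tibialis anterior (-1.86, SE 0.05).

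Pvalb, parvalbumin, the soluble calcium buffer of fast fibers, had a median of 0.382 CPM in soleus and 1316 CPM in tibialis anterior, where it was 3528-fold higher (-11.79, SE 0.37). Small regulators of the pump were split. Sln, sarcolipin, was 39.7-fold higher in soleus (5.31, SE 0.36), at 7.94 to 16.3 CPM against 0.897 CPM or less, and Mrln, myoregulin, was 5.59-fold higher in tibialis anterior (-2.48, SE 0.07). Pln, phospholamban, was not called (0.34, SE 0.07), though with library totals alone it was (0.71). The fitted differences of genes near 0 in 1 muscle, such as Sln and Pvalb, depend on the prior count.

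Genes of the junction between surface membrane and reticulum were higher in tibialis anterior or not called. Cacna1s, the voltage sensor of the calcium channel, was 1.95-fold higher (-0.96, SE 0.03), and its partners Cacng1 and Cacna2d1 2.27-fold and 2.09-fold. The junctophilins, which hold the membranes together, were 2.28-fold (Jph1) and 3.59-fold (Jph2) higher, and Jsrp1 3.66-fold. Under 1.5-fold were Cacnb1 (-0.48), Trdn (-0.36, but 0.013 with library totals alone), Hrc (-0.44), Sypl2 (-0.50) and Stac3 (0.18). S100a1 was not called at a median of 0.293 CPM in soleus (-0.17, SE 0.26, and 0.20 with library totals alone). Ryr1, Ryr3, Asph and Srl were not analysed here.

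The plot by gene list sets these groups beside metabolism and other functions. Gene lists were read against 23.8% and 18.5% of all genes tested.

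**Figure D4:**
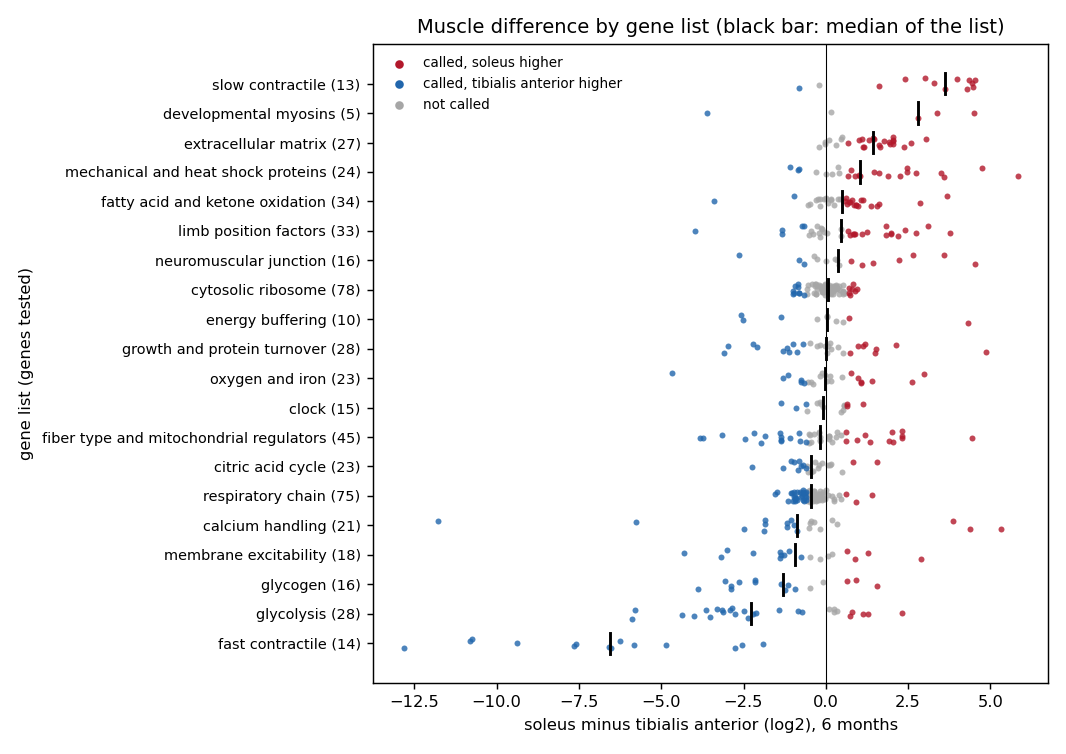
Difference between soleus and tibialis anterior at 6 months (log2, x axis) of each gene tested in 20 gene lists (y axis, with the number of genes tested), red where called higher in soleus, blue where called higher in tibialis anterior and grey where not called. Black bars are list medians, which run from -6.56 for fast contractile genes to 3.62 for slow contractile genes.

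Membrane excitability genes had 4 of 18 higher in soleus and 10 higher in tibialis anterior (median -0.93). Kcnma1, the large-conductance calcium-activated potassium channel, was 7.46-fold higher in soleus (2.90, SE 0.06). The sodium pump subunit Atp1b2 was 19.7-fold higher in tibialis anterior (-4.30, SE 0.07), from 40.6 to 49.1 CPM in soleus against 726 to 1013 CPM. The potassium channels Kcnc1 (9.06-fold) and Kcnc4 (7.93-fold) were higher in tibialis anterior too.

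At the neuromuscular junction 7 of 16 genes were higher in soleus and 3 in tibialis anterior (median 0.36). Colq, the collagen tail that anchors acetylcholinesterase, and Ache, the enzyme, differed in opposite directions. Colq read 68.97, 97.6 and 117 CPM in soleus and 2.58, 4.20 and 5.78 CPM in tibialis anterior, 23.0-fold higher in soleus (4.53, SE 0.17). Ache was 6.17-fold higher in tibialis anterior (-2.63, SE 0.07), at 58.1 to 67.7 CPM against 7.97 to 16.1 CPM. Receptor subunits Chrnd (6.32-fold), Chrna1 (4.69-fold) and the fetal Chrng (12.1-fold, 0.737 to 3.67 CPM) were higher in soleus. The subunits Chrne (-0.36) and Chrnb1 (-0.26) were not called. Dok7 (1.77-fold) and Rapsn (1.58-fold) were higher in tibialis anterior. With library totals alone Dok7 (-0.45) and Rapsn (-0.29) were not called, and the list counts became 10 and 1.

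Glycolysis was the metabolic list with the lowest median, -2.28, with 19 of 28 genes higher in tibialis anterior and 5 higher in soleus. Libraries of the 2 muscles did not overlap for 24 of the 28, against 46.5% of all genes tested. Fbp2, muscle fructose-bisphosphatase, was 59.2-fold higher in tibialis anterior (-5.89, SE 0.24), at 0.218 to 1.91 CPM in soleus and 47.7 to 67.0 CPM in tibialis anterior. Slc16a3, the lactate exporter MCT4, was 55.6-fold higher (-5.80, SE 0.18), and Gpd1, glycerol-3-phosphate dehydrogenase, 20.4-fold (-4.35, SE 0.06). The exceptions included Ldhb, the heart-type subunit of lactate dehydrogenase, which was 4.98-fold higher in soleus (2.32, SE 0.06), whereas Ldha, the muscle-type subunit, differed by -4.00. The glucose transporter Slc2a1 (2.45-fold) and the phosphofructokinase isoform Pfkp (2.18-fold) were also higher in soleus.

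In glycogen metabolism 11 of 16 genes were higher in tibialis anterior and 3 in soleus (median -1.29). Pygm, the phosphorylase that breaks glycogen down, read 2184, 2368 and 2691 CPM in soleus and 15959, 17556 and 18794 CPM in tibialis anterior, a 7.32-fold difference (-2.87, SE 0.03). Phosphorylase kinase subunit Phkg1 was 14.7-fold and Pgm1, phosphoglucomutase, 8.34-fold higher in tibialis anterior. The members higher in soleus were Gbe1, the branching enzyme (2.94-fold), Gyg1, the glycogenin that primes synthesis (1.56-fold), and Ppp1r3d (1.88-fold).

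Energy buffering genes were mixed, with 2 of 10 higher in soleus and 3 in tibialis anterior (4 and 3 with library totals alone). Ckm, muscle creatine kinase, was 5.75-fold higher in tibialis anterior (-2.52, SE 0.04) and Ak1, adenylate kinase, 5.97-fold (-2.58, SE 0.09). The AMP deaminases swapped: Ampd1 was 2.58-fold higher in tibialis anterior and Ampd3 19.8-fold higher in soleus (4.31, SE 0.06), at 245 to 326 CPM against 12.4 to 17.8 CPM. Ckb, the brain-type creatine kinase, was 1.65-fold higher in soleus with overlapping libraries.

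Oxidative genes did not move as 1 group. In fatty acid and ketone oxidation 17 of 34 genes were higher in soleus and 2 in tibialis anterior (median 0.51). Bdh1, which oxidizes ketone bodies, was 12.9-fold higher in soleus (3.69, SE 0.16), Lpl, the lipase that frees fatty acids from circulating lipoproteins, 7.30-fold (2.87, SE 0.04), and Slc27a1, a fatty acid transporter, 3.09-fold. Lpl read 1702, 1843 and 2074 CPM in soleus and 194, 256 and 288 CPM in tibialis anterior. The members higher in tibialis anterior were Ucp3, an uncoupling protein of muscle mitochondria (10.6-fold, -3.40, SE 0.18), and Acadm, the medium-chain dehydrogenase (1.96-fold).

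The respiratory chain showed the opposite balance with small differences. Of 75 genes 3 were higher in soleus, 27 higher in tibialis anterior and 45 not called, with a median of -0.46 and a range from -1.53 to 1.42. With library totals alone the counts were 6 and 7 and the median -0.09, so most of these calls depended on the scaling. The largest differences were those of the complex I subunits Ndufb7 (2.89-fold) and Ndufs8 (2.77-fold) and of Cox7a2 (2.21-fold) higher in tibialis anterior. Atpif1, the inhibitor of the ATP synthase, was 2.67-fold higher in soleus (1.42, SE 0.04), at 91.3 to 115 CPM against 32.8 to 40.7 CPM, and the muscle subunit Cox6a2 and Cox8a were 1.88-fold and 1.53-fold higher.

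In the citric acid cycle list 2 of 23 genes were higher in soleus and 9 in tibialis anterior (median -0.46), or 3 and 4 with library totals alone. Idh3a, a subunit of the NAD-dependent isocitrate dehydrogenase, was 4.71-fold higher in tibialis anterior (-2.23, SE 0.03), at 868 to 988 CPM against 186 to 213 CPM. The NADP-dependent enzyme Idh2 was 1.76-fold higher in soleus. Sucla2 (2.45-fold) and Dld (2.07-fold) were higher in tibialis anterior, and Pdk1, a kinase that shuts off pyruvate dehydrogenase, was 2.95-fold higher in soleus.

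Regulators of fiber type and mitochondria were called in both directions, 12 of 45 higher in soleus and 15 in tibialis anterior (15 and 11 with library totals alone, where the median moved from -0.19 to 0.18). Prox1, a homeobox factor linked to the slow program, read 138, 151 and 171 CPM in soleus and 5.44, 6.62 and 10.1 CPM in tibialis anterior, 21.6-fold higher (4.43, SE 0.08). Rcan1, a calcineurin target and inhibitor, was 4.99-fold higher in soleus (2.32, SE 0.08), and Esrrb, an estrogen-related receptor, 4.99-fold at 1.31 to 2.91 CPM. Sox6, a repressor of slow genes, was 13.4-fold higher in tibialis anterior (-3.74, SE 0.05), at 111 to 125 CPM against 7.62 to 12.7 CPM. Myod1, the myogenic factor known to be high in fast muscle, was 8.86-fold higher (-3.15, SE 0.13) and Six2 14.2-fold at 0.640 CPM or less in soleus. Ppargc1a, the coactivator of mitochondrial genes, differed by -0.60 (1.51-fold higher in tibialis anterior, with overlap), and its call was lost with library totals alone (-0.23).

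Of 45 limb position factors listed, which are Hox and other patterning genes, 33 passed the filter on low counts, and 16 of these were higher in soleus and 5 in tibialis anterior (median 0.46). The remaining 12 had too few counts to be tested. Hoxd10 (13.7-fold), Pitx1, the hind limb factor (8.64-fold), and Meis2 (6.74-fold) were the largest differences higher in soleus, all at 3.41 CPM or less and the first 2 with overlapping libraries. Tbx1 was 15.7-fold higher in tibialis anterior (-3.97, SE 0.07), at 259 to 362 CPM against 14.8 to 24.8 CPM. Hoxa11 and the migratory precursor factor Lbx1 were each 2.51-fold higher there.

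Growth and protein turnover genes were balanced, 8 of 28 higher in soleus and 10 in tibialis anterior (median 0.0013), or 10 and 8 with library totals alone (median 0.37). Mettl21c, a lysine methyltransferase of muscle, was 29.2-fold higher in soleus (4.87, SE 0.15), at 137 to 286 CPM against 5.73 to 9.00 CPM. Of the secreted growth factors, Mstn, myostatin, was 8.52-fold higher in tibialis anterior (-3.09, SE 0.22) and its relative Gdf11 4.42-fold higher in soleus (2.14, SE 0.11). Inhba was 2.90-fold higher in soleus with overlap. Ky, a Z-disc protein, was 7.78-fold higher in tibialis anterior, and Cish, an inhibitor of cytokine signals, 4.63-fold (-2.21, SE 0.57) with wide and overlapping ranges.

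Mechanical and heat shock proteins were mostly higher in soleus, 16 of 24 against 3 higher in tibialis anterior (median 1.02). Fhl2, a LIM protein known from heart, was 56.9-fold higher (5.83, SE 0.32), at 12.2 to 20.4 CPM against 0.558 CPM or less. Ankrd2, a stretch-responsive protein, was 27.0-fold higher (4.76, SE 0.14) and Lmod2, which sets thin filament length, 12.0-fold (3.59, SE 0.09). The family of Ankrd2 was not uniform: Ankrd23 was 2.10-fold and Ankrd1 1.81-fold higher in tibialis anterior. Murc (1.74-fold) was the third member higher there, and neither Ankrd1 (-0.49) nor Murc (-0.43) was called with library totals alone.

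Genes of oxygen, iron and redox handling had 7 of 23 higher in soleus and 6 in tibialis anterior (8 and 3 with library totals alone, where the median moved from -0.01 to 0.36). Car3, carbonic anhydrase of slow muscle, was 7.91-fold higher in soleus (2.98, SE 0.06), with 2334, 2707 and 3173 CPM in soleus and 237, 355 and 397 CPM in tibialis anterior. Glutathione peroxidases Gpx1 (6.09-fold) and Gpx3 (2.62-fold) were higher in soleus. Aqp4, the water channel of fast fibers, was 25.7-fold higher in tibialis anterior (-4.68, SE 0.09). Car14 (2.45-fold) and the transferrin receptor Tfrc (2.24-fold) were higher there, while myoglobin Mb differed by -0.17 and was not called.

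Of 27 extracellular matrix genes 20 were higher in soleus and 7 were not called (median 1.43). Aspn, asporin, was 8.26-fold higher (3.05, SE 0.10), Postn, periostin, 6.02-fold (2.59, SE 0.22) and Timp1, an inhibitor of matrix proteases, 5.21-fold (2.38, SE 0.17). Markers of connective tissue cells were also mostly higher in soleus. The fibroblast list shares Lum, Dcn and Col3a1 with the matrix list, so these 2 lists are not separate. Fibroblast markers were higher in soleus for 6 of 7 genes, with a summed level of 1647 to 2761 CPM against 855 to 1442 CPM. Tendon markers were higher for 6 of 7, summing to 553 to 1754 CPM against 106 to 294 CPM, with Chad 12.0-fold, Col11a1 10.3-fold and Tnmd 9.67-fold higher. Among the fibroblast markers Pi16 was 5.34-fold, Lum 3.11-fold and Gsn 2.50-fold higher. How far the amount of connective tissue or tendon in the samples contributed was not tested.

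Markers of other cell types were uneven. All 8 macrophage markers were higher in soleus (median 1.74), with a summed level of 151 to 244 CPM against 43.6 to 68.4 CPM, led by Cd68 (4.07-fold), C1qc (3.96-fold) and C1qb (3.45-fold). Adipocyte markers were higher in 6 of 7 tested, summing to 47.7 to 207 CPM against 27.7 to 54.0 CPM. Lep was 11.7-fold, Adipoq 9.27-fold and Retn 7.58-fold higher, while Fabp4 differed by -0.16. Endothelial markers had 1 of 12 called, Vwf (1.68-fold higher in soleus), with a summed level of 719 to 847 CPM against 776 to 894 CPM. That count became 4 of 12 higher in soleus with library totals alone, where the median moved from -0.11 to 0.27. Mural cell markers had 2 of 8 called, Cspg4 (2.69-fold) and Cnn1 (1.56-fold), and became 6 of 8 with library totals alone.

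Satellite cell markers were higher in soleus for 4 of 6 genes, with Myf5 4.95-fold, Vcam1 2.96-fold and Calcr 2.28-fold higher, whereas Cdh15, M-cadherin, was 3.28-fold higher in tibialis anterior. Of Schwann cell markers S100b was 5.12-fold higher in soleus, and 4 of 6 were not called. Of 6 T cell markers 2 were tested and both were higher in soleus, Cd5 (13.6-fold, 2.74 CPM or less) and Cd8a (1.83-fold with overlap). Cd5 read 0.279 CPM or less in tibialis anterior and passed the filter on low counts through soleus alone, so its direction is a description. The 4 defining genes Cd3e, Cd3d, Cd3g and Cd2 had too few counts. No B cell marker passed the filter, with summed levels of at most 0.381 CPM. Red cell markers had 1 of 6 called, Hba2 (6.40-fold higher in tibialis anterior, adjusted p 0.027, with overlap), whose reads may be shared with its copy Hba1. That call was lost with library totals alone, and at 9 months Hba2 differed by -0.24 and was not called.

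Clock genes had 3 of 15 higher in soleus and 3 in tibialis anterior (7 and 1 with library totals alone). Npas2 was 2.18-fold, Per2 1.57-fold and Cry2 1.57-fold higher in soleus, and Nfil3 2.59-fold, Tef 1.87-fold and Arntl 1.51-fold higher in tibialis anterior. Arntl lies at the threshold and was not called by edgeR (-0.57) or with library totals alone (-0.22), nor was Tef with library totals alone (-0.53). Cytosolic ribosomal protein genes differed little, with 7 of 78 higher in soleus, 9 in tibialis anterior and a median of 0.07. With library totals alone these became 29 and 3. Rpl27a (1.84-fold) and Rps6 (1.76-fold) were among those higher in soleus, and Rpl8, Rplp1 (1.98-fold) and Rpl22 (1.96-fold) among those higher in tibialis anterior.

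Outside these lists, the well-expressed genes with the largest differences higher in soleus included Scn1a, a sodium channel better known from neurons, which read 152, 182 and 204 CPM in soleus and 4.72, 7.15 and 11.6 CPM in tibialis anterior (25.4-fold, 4.67, SE 0.10). Vtcn1, a member of the B7 family of immune inhibitors, was 20.3-fold higher (4.34, SE 0.14). At lower mean levels were Gnat3, the G protein subunit of taste cells (180-fold, 7.49, SE 0.51), Zfp474 (178-fold), the calcium channel subunit Cacna1e (141-fold) and Tecrl (67.9-fold). Gnat3 read 11.8 to 27.6 CPM in soleus and 0.361 CPM or less in tibialis anterior. Higher in tibialis anterior at lower mean levels were Cib2, a calcium- and integrin-binding protein (149-fold), Cd24 (97.1-fold) and Gpt2, mitochondrial alanine transaminase (56.0-fold, -5.81, SE 0.09). Cd24 ran from 1.08 to 8.12 CPM in soleus and from 230 to 350 CPM in tibialis anterior.

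A group of liver transcripts was higher in soleus libraries and near 0 in tibialis anterior. This list of 20 genes was drawn up after the data were seen. The albumin gene Alb read 3.62 CPM in the lowest, and 1167 CPM in the highest soleus library, and at most 0.0808 CPM in tibialis anterior. Its difference was 10.64 (SE 5.46, adjusted p 0.072) and was not called. It was called by edgeR (adjusted p 3.4e-09) and DESeq2 (adjusted p 1.1e-41), and also by limma-voom with a replicate block (6.1e-13), with quality weights (0.018), with all 4 muscles in 1 fit (0.038) and without the 3 soleus libraries of highest Alb (0.013). Of the 20 list genes 8 had too few counts to be tested, Apoa1, Apoc3, Ttr, Fga, Fgb, Fgg, Cps1 and Ambp. Of the 12 tested 11 were higher in soleus, and Apob (9.43, SE 3.54), A1i3 (9.27, SE 3.09) and Mug1 had the largest called differences. These named genes had a median of 0 CPM in tibialis anterior and passed the filter on low counts through soleus alone. As the list was also picked from these libraries, its count is a description and no separate support. Mug1 had a median of 8.02 CPM in soleus and no count in any tibialis anterior library, at least 65.6-fold higher against a floor of 3 counts per library. Summed over the list the level was 18.5 to 2382 CPM in soleus and 1.22 to 2.26 CPM in tibialis anterior. Alb was also found in diaphragm libraries of 6 months (1.40 to 56.0 CPM of library total), and in soleus of 9 months it was 0.728 CPM or less. Where these transcripts came from was not tested. Without the 3 soleus libraries above 200 CPM of Alb (replicates 6, 7 and 11), 2641 genes were higher in soleus and 2222 in tibialis anterior, and the counts changed in 7 of 32 lists by at most 2 genes.

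The ribosomal RNA symbol Rn18s read 274 to 466 CPM in soleus at 6 months. It was listed at 0 in all 12 tibialis anterior libraries, at least 3041-fold lower against a floor of 3 counts. At 9 months Rn18s did not pass the filter on low counts, so its muscle difference was not tested at that age. Another ribosomal RNA symbol, Rn45s, read 1161 to 2101 CPM in soleus and 2505 to 4604 CPM in tibialis anterior. Ribosomal RNA symbols together took a median of 0.257% of counts in soleus and 0.315% in tibialis anterior, left after its removal in the laboratory. The cause of the 0 was not tested.

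The same comparison was made at 9 months in 24 other libraries, 12 of each muscle. Of 11279 genes tested 2627 (23.3%) were higher in soleus and 2069 (18.3%) in tibialis anterior. Of the 2639 genes higher in soleus at 6 months and tested at 9 months, 2385 were called in the same direction, which is 89.1% of the 6-month and 90.8% of the 9-month list. For tibialis anterior it was 1875 of 2067, 90.0% and 90.6% of the lists, and 0 genes were called in opposite directions. Myh4 differed by -13.07 at 9 months, Myh7 by 4.39, Atp2a1 by -6.00, Sln by 5.89 and Colq by 4.94. A test of the change of the difference between 6 and 9 months called 5 of 11666 genes (0.0429%), a count that ran from 0 to 37 over the other settings.

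Across the 7 ages, where each age was also another day of collection, the differences of the 10 genes plotted by age kept their sign. As a description of mean log2 CPM, Myh7 differed by 4.54 at 6 months, 4.14 at 18 months and 5.00 at 27 months, and Atp2a2 by 3.86, 3.49 and 3.41. For 13 of the 14 fast contractile genes the difference was smaller at 27 than at 6 months, the exception being Myom2 (-1.91 and -2.39). At 6, 18 and 27 months Myh4 was at -12.81, -11.64 and -8.22 and Pvalb -11.69, -10.52 and -5.53. Sln went from 5.31 at 6 months to 3.49 at 18 and 0.86 at 27 months, and Tnnt2 from 4.53 to 4.09 and 1.49. No test was made on these values.

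**Figure D5:**
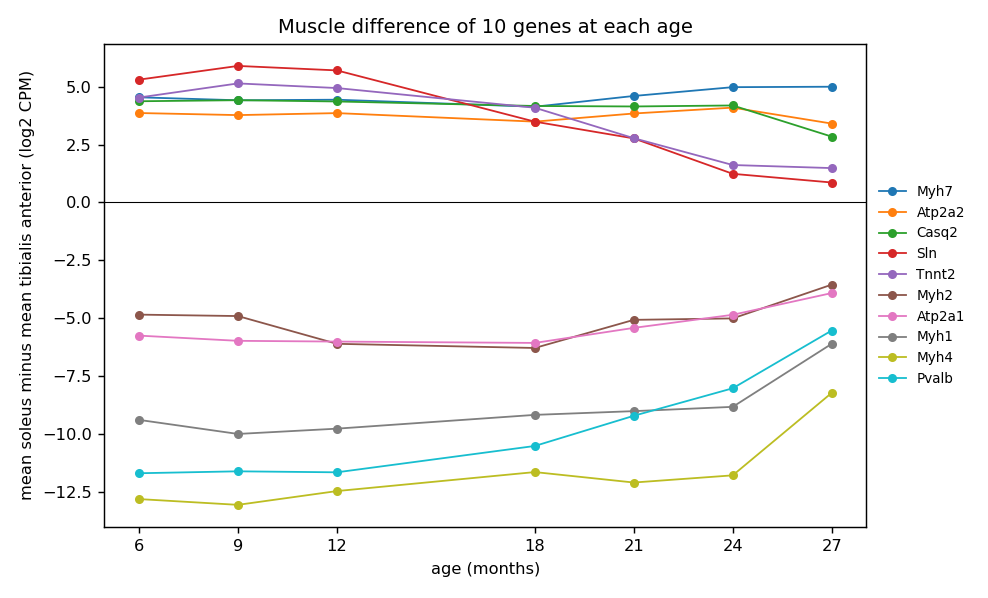
Mean soleus minus mean tibialis anterior (log2 CPM, y axis) of 10 genes at each of the 7 ages in months (x axis), with 1 line for each gene. These are differences of group means and can depart slightly from the fitted values. Pvalb runs from -11.69 at 6 months to -5.53 at 27 months, and Sln from 5.31 to 0.86.

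Set among the 4 muscles at 6 months, with 12 diaphragm and 10 gastrocnemius libraries and 1 scaling over all 4, soleus and tibialis anterior were the extremes for Myh7 and Myh4. Median Myh7 was 46180 CPM in soleus, 16291 CPM in diaphragm, 7339 CPM in gastrocnemius and 1949 CPM in tibialis anterior, and no neighbors in that order overlapped. Myh4 followed the reverse order, with medians of 8.14, 1138, 51191 and 82353 CPM, also without overlap. Myh2 was an exception. Its highest median was that of the diaphragm (12666 CPM), and gastrocnemius (6362 CPM) and tibialis anterior (6758 CPM) overlapped. Pvalb in gastrocnemius (1107 to 1767 CPM) overlapped tibialis anterior (1142 to 1438 CPM), and Sln in the diaphragm (median 14.4 CPM, up to 25.0 CPM) overlapped soleus (up to 16.5 CPM). Myh3 was higher in soleus (189 to 435 CPM) than in any library of the other 3 muscles, where it stayed at 79.9 CPM or less.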

How the data were processed

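Total RNA of muscle kept in RNAlater was depleted of ribosomal RNA and sequenced as stranded read pairs. The authors deposited raw counts per gene for each library, made with the ArrayStudio pipeline (its version is not given in the sources used here). The reference was an older rat build with an in-house gene model based on RefSeq. The deposited values carry no normalization.

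Each file held 17870 lines for 17315 symbols. Lines of 1 symbol were summed (494 symbols, 2.13% of counts, among them Hoxa11, Lmod2, Aspn and Rpl8), and 2810 symbols were at 0 in all 24 libraries. Groups came from the titles. Genes were kept with filterByExpr (minimum count 10, minimum total 15), scaled by TMM (edgeR 4.0.16) and tested with limma-voom (limma 3.58.1, R 4.3.3), two-sided, with Benjamini-Hochberg adjustment. A gene was called at an adjusted p under 0.05 and over 1.5-fold. Log2 CPM used a prior count of 0.5. The difference between 6 and 9 months was an interaction term. The script was tested on simulated data. Correlations used 100000 resamples, or all pairings for 6 libraries (SciPy 1.17.1). Alternatives were edgeR, DESeq2 1.42.0, other scalings, filters and thresholds, sample weights, a replicate block and left-out libraries.

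The text names every gene of the slow, fast, developmental and calcium lists. For other lists it names up to 3 called genes a direction with the largest difference, then the 10 called genes a direction with a mean log2 CPM of at least 5 and 5 with a mean from 0 to 5. A few genes that the rule selects are counted in their lists but not reported here by name. Genes named outside this rule were chosen after their values were seen (Ldha, Ppargc1a, Mb, Fabp4, Chrna1, Chrne, Chrnb1, Alb and Rn45s). The comparison and the lists were chosen with earlier results of these data known. Symbols named in a list but absent from the count lines are not analysed here. Promoter windows came from a RefSeq table of a later build, and no coordinates were carried over to the counts. Files of other ages and muscles were used where named.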

Additional observations from a re-analysis of the deposited data

Results flagged for a closer look

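The muscle difference changed between 6 and 9 months for 5 genes by the interaction term of limma-voom, in all 5 toward a lower soleus level relative to tibialis anterior at 9 months. For Casp12 the difference went from 1.75 (SE 0.11) to 1.10 (SE 0.10), a change of -0.63 (SE 0.15, adjusted p 0.037). Gabrr2 went from -0.02 (SE 0.10) to -0.75 (SE 0.13), a change of -0.71 (SE 0.17, adjusted p 0.037). Rgn, regucalcin, went from -1.84 (SE 0.16) to -2.88 (SE 0.17), a change of -1.02 (SE 0.25, adjusted p 0.045). Tdrkh went from -0.88 (SE 0.18) to -2.20 (SE 0.20), a change of -1.29 (SE 0.27, adjusted p 0.02). Tox2 went from 1.42 (SE 0.14) to 0.37 (SE 0.19), a change of -1.03 (SE 0.25, adjusted p 0.037). The number of such genes was 18 by edgeR, 36 by DESeq2, 37 without a filter on low counts, 3 with quality weights and 0 with Bonferroni adjustment. The levels were low, with no library above 8.69 CPM at 6 months. Age and day of collection cannot be told apart here.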

How the results depend on the processing

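Counts at 6 months stayed within 1.5 times under most settings, and the scaling and the fold threshold moved them most. With library totals alone, 4475 genes were higher in soleus and 1025 in tibialis anterior at 6 months, and 4481 and 963 at 9 months. With a 2-fold threshold the counts were 1533 and 953 at 6 months and 1480 and 903 at 9 months. With a mean log2 CPM of at least 2 the soleus counts were 1632 and 1657, since fewer genes were tested. The number of genes whose muscle difference differed between 6 and 9 months was 18 by edgeR, 36 by DESeq2, 37 without a filter on low counts, 3 with a mean log2 CPM of at least 2, with quality weights or at 2-fold, and 0 in limma-voom with Bonferroni adjustment, where 1375 genes had an unadjusted p under 0.05. With library totals alone Mybpc1 (0.17), Trdn (0.013) and S100a1 (0.20) changed sign, and so did r of Myh4 and Myh2 in tibialis anterior (-0.0296). The r of Myh4 and Pvalb in soleus was 0.205 without the 2 farthest libraries. The cause was not tested. Of 180 genes that the rule names 144 kept direction and call under every setting in which they were tested. Only 148 of the 180 were tested with a mean log2 CPM of at least 2, and 176 with symbols on several lines left out.

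Same-numbered soleus and tibialis anterior libraries had a correlation of their deviations from the group means over 0.1 in 11 of 12 pairs at 6 months (0.08 to 0.29) and 10 of 12 at 9 months. At 6 months 10 of 12 soleus libraries correlated best with their own number. The labels do not say that the numbers mark an animal, so the groups were not paired. With a replicate block 2699 genes were higher in soleus and 2054 in tibialis anterior at 6 months, and no gene named by the rule changed its call, while Alb, named outside it, became called. Without soleus replicate 4, which had the lowest Tnni2, Tnnt3, Myh4 and Actn3, the counts were 2670 and 2192. The depth of 24.4 M counts or more leaves genes under about 1 CPM with few counts, and their fitted differences depend on the prior count.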

Other observations

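Myh6, the heart-type heavy chain, took 3 levels among libraries, and same-numbered libraries of 3 muscles shared the level. This was noticed after the values were seen and was given no test. In CPM of library total, soleus replicates 3, 4 and 5 read 33.5, 31.5 and 37.9, replicates 6, 7 and 8 read 497, 558 and 533, and the other 6 read 233 to 268. In tibialis anterior the same replicates read 1.71, 4.39 and 3.00, then 15.5, 15.4 and 18.7, with 4.85 to 9.14 in the others. In diaphragm they read 12.8, 13.7 and 11.1, then 140, 148 and 152, with 65.3 to 99.8 in the others. At 9 months soleus values of Myh6 also lay apart, between 15.7 and 19.5 in 5 libraries and between 232 and 539 in 7. Myh7 and Myh2 did not divide the soleus libraries in this way.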
